A study of Homo sapiens with 15 samples.

Results

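RNA from MCF-10A cells edited with guide RNA 2 against NF1 was compared with RNA from MCF-10A cells given an empty vector. The comparison takes in every library that the labels place in these genotypes, 3 replicates of each, or 6 of the 15 libraries in the series. MCF-10A is a non-tumorigenic line of human breast epithelial cells. The guide 2 cells carry the genotype label NF1-g2 and the controls the label EV. All libraries came from untreated cells in phenol red-free DMEM/F12 with horse serum, EGF, hydrocortisone, cholera toxin and insulin. The labels do not say whether either population was a clone or a pool. They call the replicates biological without naming separate cultures, so the spread between replicates may be technical. The main fit used all 15 libraries, which also include parental cells, cells given another guide and cells given both guides. Its p-values therefore rest on the spread between replicates in all of these genotypes, and not in the 6 compared libraries alone. The 6 libraries held between 53612149 and 69186523 counts, and 3 counts in a library corresponded to 0.0434 to 0.056 CPM, the count divided by the library total and scaled to 1e+06.

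Neurofibromin, the product of NF1, is a GTPase-activating protein that returns RAS from its GTP-bound to its GDP-bound form. RAS acts through RAF, MEK and ERK, and ERK induces transcripts such as FOSL1 and CCND1 as well as feedback inhibitors of the SPRY, SPRED and DUSP families. In culture, MCF-10A cells hold basal features such as keratins 5, 14 and 17, p63 and hemidesmosome proteins, together with the junctions of an epithelium, whose central adhesion molecule is E-cadherin, the product of CDH1.

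Guide 2 replicate 2 stood apart from guide 2 replicates 1 and 3, and its values are given separately throughout. The labels do not say whether it came from the same edited population as the others, so a mean, fold change or SD over the 3 guide 2 libraries may join unlike cells. Its log2 CPM was more than 1 unit above the mean of the other guide 2 replicates at 1647 of the 17457 genes tested and more than 1 unit below at 2514. Replicates 1 and 3 differed from each other by that much at 554 genes. The median SD of log2 CPM over genes was 0.315 among the guide 2 libraries and 0.131 among the empty-vector libraries. Empty-vector replicate 3 also differed from empty-vector replicates 1 and 2, by more than 1 unit at 782 genes.

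NF1 (ENSG00000196712, chromosome 17, 31094927 to 31382116 on the plus strand, GRCh38) was low in every guide 2 library. It had 27.0, 31.4 and 29.8 CPM in guide 2 replicates 1, 2 and 3, and 115, 123 and 133 CPM in the empty-vector libraries. The groups did not overlap, and replicate 2 lay with the other guide 2 libraries at this gene. Means were 29.4 ± 2.27 and 124 ± 8.87 CPM (SD, n = 3 each), so that 23.8% of the control level remained. The log2 fold change was -2.09 (edgeR quasi-likelihood test, Benjamini-Hochberg adjusted p 1.22e-07, SE 0.0909). An exact two-sided permutation test on CPM gave p = 0.1, the smallest value that 3 libraries against 3 allow. Of the 3 genes that lie inside an NF1 intron, EVI2A and EVI2B were expressed highly enough to be tested. Of these, 0 passed in edgeR, DESeq2 or limma-voom, with 0 at an unadjusted p under 0.05. EVI2B had 8.44, 3.99 and 9.74 CPM in guide 2 cells against 11, 10.2 and 7.89 CPM in controls. Its log2 fold change was -0.40 (edgeR adjusted p 0.437).

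With all replicates, 687 of 17457 genes passed an adjusted p of 0.05 (3.94%). Of these, 210 were higher in guide 2 cells (1.2%) and 477 were lower (2.73%), and 250 differed by at least 1 on the log2 scale. Without guide 2 replicate 2, 2581 of 17849 genes passed (14.5%), with 900 higher (5.04%) and 1681 lower (9.42%). The fits shared 671 genes, all with the same direction, which is 97.7% of the 687 and 26% of the 2581. Leaving out 1 of the other 5 libraries gave 170 to 369 calls, the fewest without empty-vector replicate 3, and a fit of only these 6 libraries gave 13. At 684 of the 687 the groups did not overlap in CPM. Over all genes tested, every guide 2 library lay above every control at 12.2% and below every control at 10.9%. An unadjusted p under 0.05 in edgeR was reached by 3293 of the 17457 genes. DESeq2 called 479 of them higher and 894 lower, and limma-voom with sample quality weights called 3003 higher and 2801 lower. Counts within a list by these measures stand beside those numbers.

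Among regulators of RAS, NF1 was the gene that passed with all replicates. It was 1 of 10 tested genes for RAS GTPase-activating proteins and SPRED proteins, with a background of 2.73% for lower calls, and DESeq2 called 2 lower and limma-voom with quality weights 4 lower and 1 higher. Without replicate 2, RASA2, DAB2IP and SPRED2 were lower and RASA3 was higher as well, beside 9.42% and 5.04% of all genes. DAB2IP, a RAS GTPase-activating protein, had 18.9 and 18.0 CPM in replicates 1 and 3 and 71.6 CPM in replicate 2, against 46.2 to 70.9 CPM in controls. Of 18 genes for RAS, RAF, MEK, ERK and their adaptors, edgeR called 0. An unadjusted p under 0.05 was reached by 2, DESeq2 called 1 and limma-voom with sample quality weights called 5, of which 3 were lower. Without replicate 2, RRAS2 and the exchange factor SOS2 were lower, by -0.64 and -0.39 on the log2 scale, beside 9.42% of all genes.

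Among 22 MAPK output and feedback transcripts, edgeR called 2 higher, beside 1.2% of all genes, and 0 lower. DESeq2 called 2 higher and 2 lower, and limma-voom with quality weights 8 higher and 4 lower. FOSL1, which encodes the AP-1 subunit FRA-1, had 149, 176 and 127 CPM in guide 2 replicates 1, 2 and 3. In the controls it had 82.6, 78.7 and 84.9 CPM. All guide 2 libraries were above all controls, with a log2 fold change of 0.86 (edgeR adjusted p 0.0046, SE 0.13). SPRY2, a feedback inhibitor of receptor tyrosine kinase signalling, had 24.4, 22.6 and 23.5 CPM against 16.1, 16.1 and 13.6 CPM. Its 3 guide 2 values lay close together and above every control, and it rose by 0.61 (edgeR adjusted p 0.00524, SE 0.09). Both genes also passed whichever of the 6 libraries was left out, but neither passed in guide 2 against parental cells with all replicates.

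Other MAPK transcripts split guide 2 replicate 2 from its group. CCND1, which encodes cyclin D1, had 1107 and 1049 CPM in replicates 1 and 3 and 437 CPM in replicate 2, with 707, 675 and 597 CPM in controls. Replicates 1 and 3 were above and replicate 2 below every control, and the gene did not pass with all replicates (0.38, edgeR adjusted p 0.464). Without replicate 2 it was higher by 0.68 (edgeR adjusted p 0.00372). DUSP6, an ERK phosphatase, had 26.5 and 30.3 CPM in replicates 1 and 3 but 63.2 CPM in replicate 2, against 57.9, 57.0 and 57.3 CPM in controls. Without replicate 2, DUSP6 was lower by -1.04 (edgeR adjusted p 0.0137). ETV1 was then also higher, and SPRED2 and IER3 were lower. In that fit 4 of the 22 rose and 3 fell, beside 5.04% and 9.42% of all genes. The list's median log2 fold change was 0.20 with all replicates and 0.23 without replicate 2, beside 0.03 and -0.0072 over all genes tested. Parental cells against the same controls gave -0.13, and guide 2 against parental cells gave 0.29 with all replicates. Among 12 tested genes of the EGF receptor family and its ligands, edgeR called 0 with all replicates, with 2 at an unadjusted p under 0.05, 1 by DESeq2 and 8 by limma-voom with quality weights. Without replicate 2, the ligands TGFA, AREG and HBEGF and the receptor inhibitor LRIG1 were lower, beside 9.42% of all genes. TGFA had 7.66 and 6.94 CPM in replicates 1 and 3 and 102 CPM in replicate 2, with 37.4 to 63.7 CPM in controls.

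Proliferation transcripts were higher in all 3 guide 2 libraries. Each of 18 mitosis genes lay above every control library in every guide 2 library, beside 12.2% of all genes, and 3 of them passed, beside 1.2%. These were TOP2A, the topoisomerase of mitotic chromosomes, CDK1, the mitotic kinase, and UBE2C, the ubiquitin-conjugating enzyme of the anaphase-promoting complex. CDK1 had 255, 242 and 272 CPM in guide 2 replicates 1, 2 and 3 against 136, 130 and 154 CPM in controls. Replicate 2 was not apart, and CDK1 rose by 0.86 (edgeR adjusted p 0.0211, SE 0.18). UBE2C had 125, 165 and 116 CPM against 65.0, 69.8 and 74.6 CPM and rose by 0.94 (edgeR adjusted p 0.0185, SE 0.19). TOP2A rose by 0.81 (edgeR adjusted p 0.0445). All 3 passed without guide 2 replicate 2. Leaving out another of the 6 libraries ended the calls of CDK1 (edgeR adjusted p 0.0629 to 0.0895) and TOP2A (0.106 to 0.163), and leaving out an empty-vector library that of UBE2C (0.0631 to 0.0786). MKI67, which encodes the Ki-67 antigen, had 646, 785 and 722 CPM against 415, 486 and 580 CPM and did not pass. The list's median log2 fold change was 0.65 with all replicates and 0.56 without replicate 2. Parental cells against the empty vector gave a list median of 0.73, a comparison that shares the same control libraries. Against parental cells, the guide 2 median was -0.12.

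**Figure D1:**
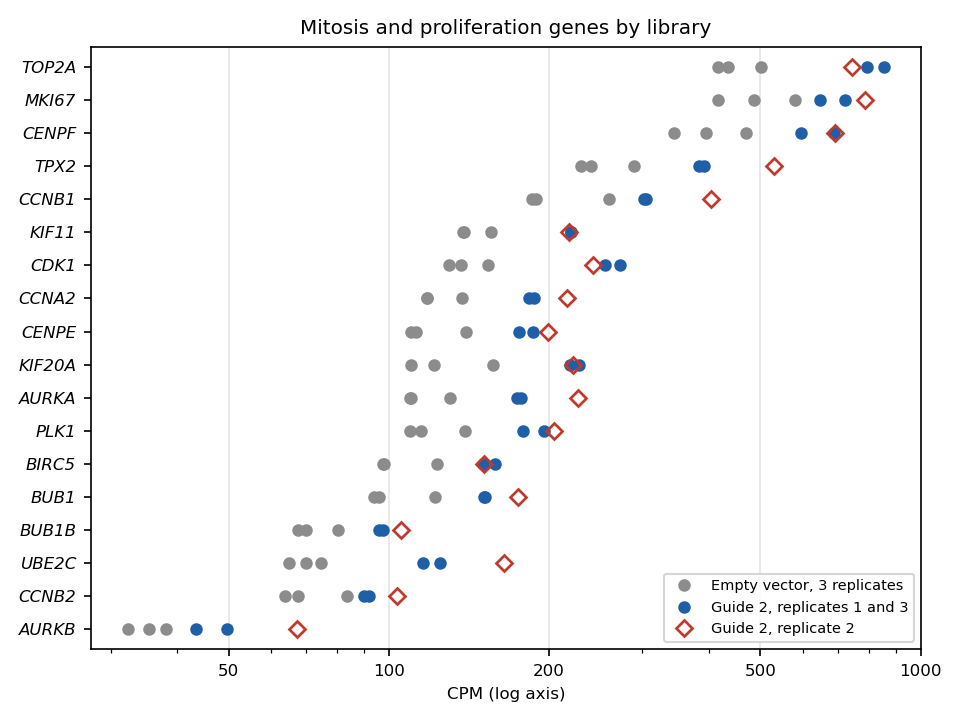
CPM of 18 mitosis and proliferation genes (log axis) in each library, with grey circles for the 3 empty-vector libraries, blue circles for guide 2 replicates 1 and 3 and open red diamonds for guide 2 replicate 2. Every blue and red symbol lies to the right of all grey symbols of its gene, and TOP2A, CDK1 and UBE2C passed the test.

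Of 18 DNA replication genes, 14 lay above every control and 1 passed, beside 12.2% and 1.2% of all genes. This was CDC45, a subunit of the replicative helicase. CDC45 had 64.1, 57.7 and 60.6 CPM against 47.0, 44.2 and 38.3 CPM and rose by 0.48 (edgeR adjusted p 0.0242, SE 0.10). CDC45 lost its call without empty-vector replicate 2 or 3 or guide 2 replicate 1 or 3 (edgeR adjusted p 0.0688 to 0.131). The list's median was 0.38 with all replicates and 0.20 without replicate 2. Parental cells against the same controls gave 0.37, and guide 2 against parental cells gave -0.00049. RFC3, GINS1 and MCM7 had their highest values in replicate 2. MCM7, a helicase subunit on chromosome 7, had 225 and 209 CPM in replicates 1 and 3, 383 CPM in replicate 2 and 174 to 180 CPM in controls. Among G1 regulators, the CDK inhibitor gene CDKN2D rose by 0.82 (edgeR adjusted p 0.0153), with 7.57, 6.09 and 7.54 CPM against 4.25, 3.98 and 3.66 CPM. Its call ended without the same libraries (edgeR adjusted p 0.0536 to 0.0821). CDK6 showed replicate 2 apart, with 74.8, 447 and 73.9 CPM against 158, 152 and 216 CPM. Its log2 fold change was 0.15 with all replicates and -1.27 without replicate 2 (edgeR adjusted p 0.92 and 0.0157).

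The 24 genes with the largest differences, 12 in each direction, were taken from the called genes whose groups did not overlap and whose average log2 CPM was at least 1. All 24 also passed without replicate 2. At 18 of them replicate 2 lay between the other guide 2 libraries and the controls. Choosing genes without overlap had already placed replicate 2 on the guide 2 side of every control, so this count only describes the chosen genes. Parental values are given beside those whose CPM is printed just below, because none of the 24 passed in guide 2 against parental cells in edgeR. Of the 24, 10 had an unadjusted p under 0.05 there. Without replicate 2, 9 of the 24 passed against parental cells. Against the empty vector, 11 of the 24 passed whichever library was left out, namely SLC27A6, CD24, SDCBP2, CXCL5, ICAM1, JCAD, ARMCX3, RGS4, ARL10, GPAT3 and ZNF488. The other 13 lost the call without at least 1 library.

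Several of the lowest genes encode inflammatory or surface proteins. IL1B, which encodes the cytokine interleukin-1 beta, had 1.82, 10.2 and 1.24 CPM in guide 2 replicates 1, 2 and 3 and 35.9, 32.6 and 75.1 CPM in controls. It fell by 3.47 on the log2 scale (edgeR adjusted p 0.0232, SE 0.741), and parental cells had 1.13 to 4.54 CPM. IL1B did not pass without empty-vector replicate 3 or guide 2 replicate 1 or 3 (edgeR adjusted p 0.0965, 0.0767 and 0.0598). CXCL5, a chemokine that attracts neutrophils, had 6.99, 6.92 and 5.94 CPM against 40.8, 34.3 and 28.6 CPM. Replicate 2 was not apart there, and CXCL5 fell by 2.40 (edgeR adjusted p 0.0043, SE 0.36). Parental cells had 12.8 to 25.6 CPM of CXCL5. ICAM1, a ligand of leukocyte integrins, had 6.49, 4.21 and 7.08 CPM against 27.1, 25.9 and 30.5 CPM. It fell by 2.24 (edgeR adjusted p 0.000207, SE 0.195), while parental cells had 6.78 to 10.6 CPM. CD24, a glycosylated surface protein of luminal breast cells, had 20.2, 22.1 and 17.3 CPM against 85.0, 92.3 and 266 CPM. It fell by 2.92 (edgeR adjusted p 0.00943, SE 0.514), and parental cells ranged from 35.2 to 171 CPM. SLC27A6, of the fatty acid transport protein family, was the lowest by fold change (-4.01, edgeR adjusted p 0.00399). It had 0.199, 0.725 and 0.231 CPM against 4.46, 4.5 and 9.21 CPM, and parental cells had 0.188 to 0.844 CPM. The other low genes were TMEM40, the adhesion receptor ADGRG1, the proteoglycan BGN, the PDZ protein SDCBP2, the non-coding CASC19, the ATP-hydrolysing enzyme ENTPD2 and the junction-associated JCAD. Their log2 fold changes ran from -2.97 to -2.23.

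Among the highest genes, ARMCX3, which encodes a protein of the mitochondrial outer membrane, had 23.5, 5.26 and 24.8 CPM in guide 2 replicates 1, 2 and 3. Controls had 1.52, 1.64 and 1.64 CPM and parental cells 6.08 to 6.99 CPM. ARMCX3 rose by 3.47 (edgeR adjusted p 0.0023, SE 0.43), and by 3.88 without replicate 2. RGS4, a GTPase-activating protein for G protein alpha subunits, had 10.4, 1.99 and 10.5 CPM against 0.805, 0.848 and 0.522 CPM. RGS4 rose by 3.39 (edgeR adjusted p 0.00399, SE 0.497), and parental cells had 1.34 to 1.96 CPM. LAMA4, the laminin alpha 4 chain, had 16.2 and 17.8 CPM in replicates 1 and 3 and 3.08 CPM in replicate 2. Parental cells had 2.22 to 3.17 CPM of LAMA4, and empty-vector controls had at most 2.84 CPM. Replicate 2 thus lay just above the controls at LAMA4, which passed with all replicates (2.40, edgeR adjusted p 0.0243) but not without any 1 of the other 5 libraries (0.0612 to 0.118). CA8, a carbonic anhydrase relative without that activity, had the opposite order, with 3.60, 16.2 and 4.09 CPM against 1.28, 1.29 and 1.51 CPM. CA8 rose by 2.53 with all replicates and by 1.47 without replicate 2 (edgeR adjusted p 0.029 and 0.0325). Without an empty-vector library its adjusted p in edgeR was 0.105 to 0.113, and parental cells had 7.38 to 22.9 CPM.

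TMPRSS15, which encodes the gut protease enteropeptidase, had 12.4, 0.381 and 16.1 CPM in guide 2 cells and no count in any control. Set against 3 counts per control library (0.056 CPM), its guide 2 mean was at least 172-fold higher. Replicate 2 alone was at least 6.8-fold higher, and parental cells had 0.561 to 5.8 CPM. The remaining high genes were ARL10, the protease inhibitor TFPI2, the collagen-modifying P3H3, the glycerolipid enzyme GPAT3, the clock factor NPAS2, ZNF488 and the meiotic inhibitor FBXO43. Their log2 fold changes ran from 1.35 to 2.04. ZNF488 was alike in the 3 guide 2 libraries, with 2.87, 2.7 and 2.73 CPM against 1.03, 1.03 and 1.14 CPM, and parental cells had 2.44 to 3.01 CPM.

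**Figure D2:**
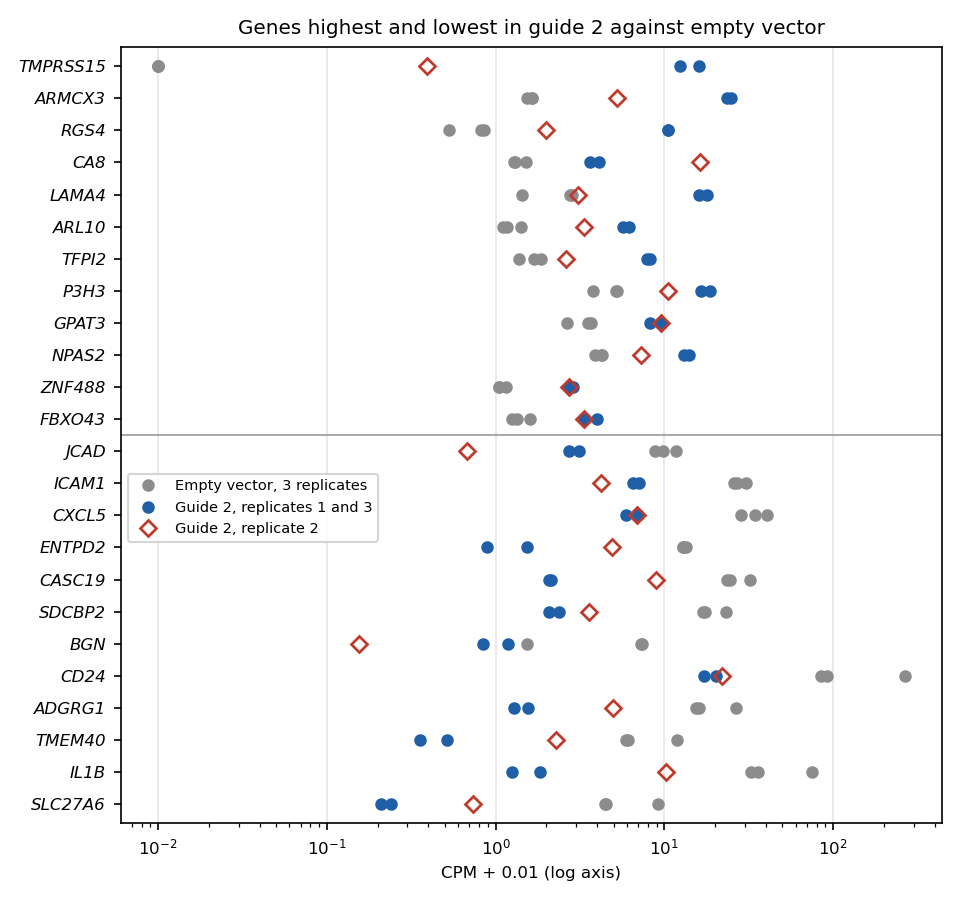
CPM plus 0.01 (log axis) of the 12 highest genes (above the line) and 12 lowest genes (below it) in guide 2 against empty vector. Grey circles are the 3 empty-vector libraries, blue circles guide 2 replicates 1 and 3 and red diamonds guide 2 replicate 2, which lies between the other guide 2 libraries and the controls at 18 of the 24 genes. The genes were chosen for no overlap between the groups, so no guide 2 symbol could lie among the controls.

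Most epithelial and basal genes were low in guide 2 replicates 1 and 3 and near or above the control level in replicate 2. CDH1 had 0.0361 and 0.0434 CPM in replicates 1 and 3, which is 2 and 3 counts. It had 91.4 CPM in replicate 2 and 44.1, 46.8 and 127 CPM in the controls. Replicate 2 was thus within the control range, and the other guide 2 libraries were at the floor of detection. With all replicates CDH1 had a log2 fold change of -1.29 (edgeR adjusted p 0.715, SE 1.57), and without replicate 2 of -10.8 (edgeR adjusted p 0.00111). In these bulk samples, fewer cells of a type and less RNA per cell cannot be told apart. CDH1 was at 0.0191 to 0.158 CPM in guide 1 cells, 14.8 to 23.4 CPM in cells given both guides and 1.79 to 42.9 CPM in parental cells. The labels call all of these cells epithelial, and in guide 2 replicates 1 and 3 this defining marker was all but absent.

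Of 25 tested genes for epithelial junctions and identity, 3 fell with all replicates and 20 fell without replicate 2, beside 2.73% and 9.42% of all genes. The list's median deviation from the control mean was -2.37 log2 units in replicate 1, 0.28 in replicate 2 and -2.37 in replicate 3. Replicate 2 was above both other guide 2 libraries at 22 of the 25. It was more than 1 log2 unit above their mean at 20, beside 1647 of all 17457 genes tested. The list's median log2 fold change was -0.64 with all replicates and -2.67 without replicate 2. Parental cells against the same controls gave -0.81, and guide 2 against parental cells gave 0.07 with all replicates. The genes that fell with all replicates were TJP1, a tight junction scaffold, SPINT1, an inhibitor of membrane serine proteases, and RAB25, an epithelial trafficking GTPase. SPINT1 had 28.2, 53.4 and 28.5 CPM in guide 2 replicates 1, 2 and 3 against 96.6, 101 and 120 CPM, so replicate 2 was also below the controls. It fell by 1.55 (edgeR adjusted p 0.0024, SE 0.20). SPINT1 and RAB25 passed whichever library was left out, and TJP1 did not pass without empty-vector replicate 3 or guide 2 replicate 1 or 3 (edgeR adjusted p 0.106, 0.058 and 0.0538). RAB25 had 1 count in the 3 guide 2 libraries together and 401 in the controls. The ratio of control to guide 2 was 437, with an exact 95% interval of 78 to 1.73e+04 that covers counting error only.

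ESRP1, a splicing factor of epithelial cells, had 0.0723, 86.6 and 0.0289 CPM in guide 2 replicates 1, 2 and 3 against 32.6, 33.9 and 57.3 CPM. FAT2, an atypical cadherin, had 0, 193 and 0.0289 CPM against 71.4, 93.5 and 131 CPM. LAD1, a basement membrane protein of epithelia, had 0.0181, 105 and 0.0145 CPM against 26.3, 26.6 and 50.6 CPM. At FAT2, LAD1, ESRP1 and MPZL2, replicate 2 exceeded every control. The desmosomal cadherins DSG3 and DSC3 were at 0.235 and 0.632 CPM in replicate 1, 91.7 and 156 CPM in replicate 2, and 0.275 and 0.593 CPM in replicate 3. Controls had 67.1 to 135 CPM of DSG3 and 77.0 to 136 CPM of DSC3. EPCAM, an epithelial adhesion molecule, had 2.62 and 2.67 CPM in replicates 1 and 3, 103 CPM in replicate 2 and 9.42 to 18.2 CPM in controls. It did not pass with or without replicate 2. At 4 genes, FAT2, LAD1, CDH1 and TSPAN18, replicates 1 and 3 had at most 3 counts each while replicate 2 and every control had at least 5 CPM. The reverse pattern was found at 0 genes.

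**Figure D3:**
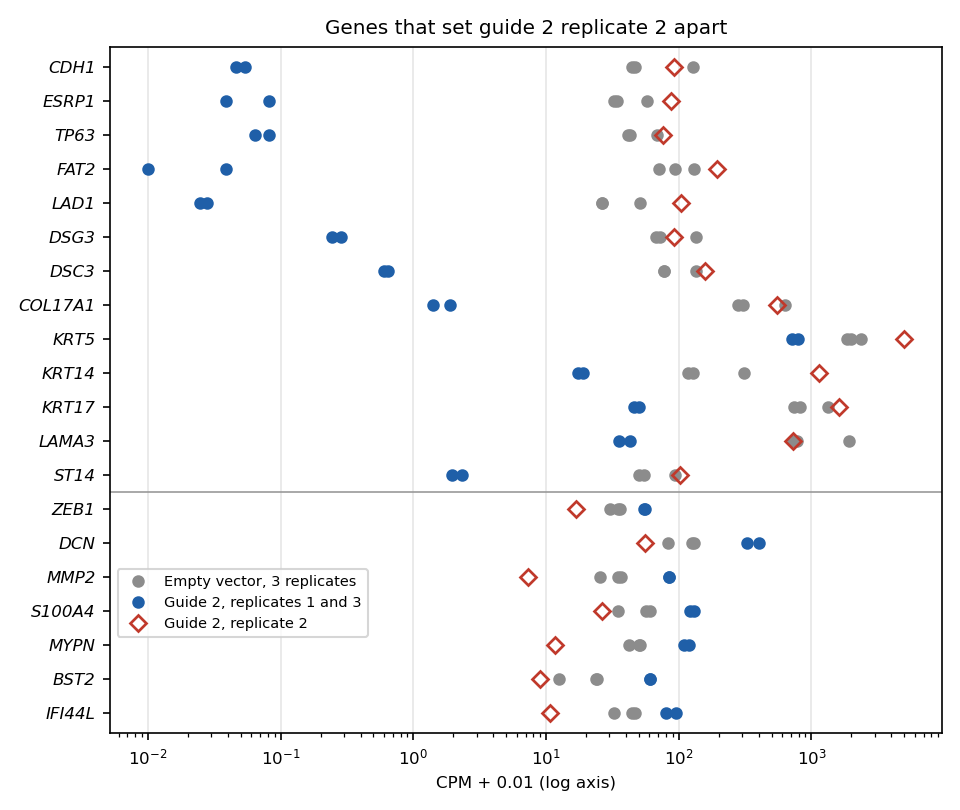
CPM plus 0.01 (log axis) of 20 genes in each library, with 13 epithelial and basal genes above the line and 7 mesenchymal, muscle and interferon genes below it. Guide 2 replicate 2 (red diamonds) lies within or above the controls (grey) above the line, except at LAMA3 where it is just below them, and replicates 1 and 3 (blue) lie far to the left, while below the line replicate 2 is to the left of every control.

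Promoter sequence is shown for 3 of these genes because repressors of the ZEB and SNAI families, which act on epithelial genes, bind the E-box CAGGTG. The 250 bases before the annotated start were read from the RefSeq table for GRCh38.p14 and searched for CAGGTG, which reads CACCTG on the other strand; the spellings cannot overlap. LAD1 (chr1:201399325-201399574, minus strand) and RAB25 (chr1:156060910-156061159, plus strand) are printed with CRB3 (chr19:6464021-6464270, plus strand), which encodes an apical polarity protein. CRB3 had 0.0181, 4.62 and 0 CPM in guide 2 replicates 1, 2 and 3 against 1.63, 1.51 and 3.49 CPM. Sequences run 5′ to 3′ towards the start, in lower case with matches in capitals.
LAD1: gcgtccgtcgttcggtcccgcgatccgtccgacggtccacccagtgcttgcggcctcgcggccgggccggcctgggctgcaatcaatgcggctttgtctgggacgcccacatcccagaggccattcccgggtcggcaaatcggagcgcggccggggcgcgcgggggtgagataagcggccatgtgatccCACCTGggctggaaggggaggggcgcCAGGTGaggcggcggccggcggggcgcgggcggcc
CRB3: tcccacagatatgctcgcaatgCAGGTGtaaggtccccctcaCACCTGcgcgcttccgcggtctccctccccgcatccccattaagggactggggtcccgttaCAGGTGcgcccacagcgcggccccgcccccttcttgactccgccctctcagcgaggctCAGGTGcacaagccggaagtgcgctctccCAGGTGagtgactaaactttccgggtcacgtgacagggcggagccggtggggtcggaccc
RAB25: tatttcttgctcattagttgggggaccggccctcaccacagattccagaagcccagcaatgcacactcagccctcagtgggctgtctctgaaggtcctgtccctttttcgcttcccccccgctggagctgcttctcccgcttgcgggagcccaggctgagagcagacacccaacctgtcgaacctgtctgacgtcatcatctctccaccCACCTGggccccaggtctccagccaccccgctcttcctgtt
LAD1 held 2 matches, CRB3 held 5 and RAB25 held 1, beginning 41 bases before its start. Of 35116 such windows in the table, 17.5% held at least 1 match and 2.53% held 2 or more. Of the epithelial list, 16 genes had an entry, with 25 windows in all, and 12 of these windows held a match. FAT2, TP63, DSG3, DSC3 and COL17A1 had none in their windows. A match describes the letters of a window and not binding, and 3 genes were chosen to be shown after their values were seen.

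ZEB1, SNAI1 and SNAI2, which encode such repressors, had unlike patterns. ZEB1 had 56.1 and 54.4 CPM in replicates 1 and 3, 16.7 CPM in replicate 2 and 35.7, 34.9 and 30.1 CPM in controls. Replicates 1 and 3 were above and replicate 2 below every control, with 0.33 for all replicates (edgeR adjusted p 0.625) and 0.69 without replicate 2 (edgeR adjusted p 0.000733). SNAI1 went the other way in all 3 libraries, with 0.777, 0.816 and 0.824 CPM against 2.42, 2.99 and 3.06 CPM. SNAI1 fell by 1.82 (edgeR adjusted p 0.00133, SE 0.21). SNAI2 had 135, 161 and 127 CPM against 152, 145 and 139 CPM and did not pass.

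Basal genes had the same order of libraries. Of 18 basal mammary genes, 2 fell with all replicates, KRT15 and LAMB3, and 15 fell without replicate 2, beside 2.73% and 9.42% of all genes. KRT15 did not pass without empty-vector replicate 2 or 3 or guide 2 replicate 1 or 3 (edgeR adjusted p 0.0626 to 0.151). Median deviations were -2.30, 0.63 and -2.12 in guide 2 replicates 1, 2 and 3. The list's median log2 fold change was -0.65 with all replicates and -2.32 without replicate 2. Parental cells against the same controls gave -0.87, and guide 2 against parental cells gave 0.18 with all replicates. TP63, the transcription factor of basal epithelium, had 0.0542, 75.8 and 0.0723 CPM against 43.1, 41.4 and 68.0 CPM. KRT14 had 18.9, 1147 and 17.4 CPM against 118, 129 and 309 CPM, so replicate 2 was above every control. KRT5 had 709, 4997 and 793 CPM against 1859, 1972 and 2368 CPM, with the same order. COL17A1, a hemidesmosome collagen, had 1.39, 553 and 1.86 CPM against 279, 303 and 630 CPM. The summed CPM of the 18 genes was 4570, 16990 and 4695 in guide 2 replicates 1, 2 and 3, and 10680 to 18630 in the controls.

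LAMB3, the laminin beta 3 chain, differed in that it was low in all 3 guide 2 libraries. It had 800, 672 and 755 CPM against 1197, 1187 and 1707 CPM and fell by 0.89 (edgeR adjusted p 0.0202, SE 0.19). It did not pass without empty-vector replicate 3 or guide 2 replicate 3 (edgeR adjusted p 0.0871 and 0.0565). Of 17 keratinocyte differentiation genes, edgeR called 0 with all replicates, with 1 at an unadjusted p under 0.05, 1 by DESeq2 and 9 by limma-voom with quality weights. Without replicate 2, 8 fell, beside 9.42% of all genes. SPRR1B, a cornified envelope precursor, had no count in replicates 1 and 3, 31.5 CPM in replicate 2 and 1.03, 1.53 and 11 CPM in controls. S100A9, a calcium-binding protein of stressed epithelium, had 0.542, 21.1 and 0.361 CPM against 14.0, 15.5 and 37.9 CPM. Among 11 luminal genes CD24 fell with all replicates, beside 2.73% of all genes. KRT7 had 2866, 1905 and 2615 CPM against 2413 to 2518 CPM, and did not pass.

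Many mesenchymal genes were low in replicate 2, which was below both other guide 2 libraries at 13 of 21. It was more than 1 log2 unit below their mean at 11 of the 21, beside 2514 of all 17457 genes tested. Of the 21 genes, SNAI1 and COL1A1 fell with all replicates in edgeR and 0 rose. DESeq2 called 3 lower and 0 higher, and limma-voom with quality weights 5 lower and 9 higher. COL1A1 did not pass without empty-vector replicate 3 or guide 2 replicate 1 or 3 (edgeR adjusted p 0.0769, 0.0625 and 0.0578). Without replicate 2, 4 rose, namely ZEB1, S100A4, DCN and MMP2, and 3 fell, beside 5.04% and 9.42% of all genes. DCN, a matrix proteoglycan, had 328, 55.4 and 400 CPM against 127, 130 and 82.3 CPM. It was higher by 1.66 without replicate 2 (edgeR adjusted p 0.00294). MMP2, a gelatinase, had 84.2, 7.30 and 83.7 CPM against 35, 36.6 and 25.5 CPM. At both genes replicates 1 and 3 lay above every control and replicate 2 lay below. FN1, which encodes fibronectin, had 11621, 2818 and 13426 CPM against 11608 to 13397 CPM. VIM, which encodes the filament protein vimentin, had 2107, 866 and 2007 CPM against 1577, 1600 and 1542 CPM, and neither FN1 nor VIM passed in either fit. Median deviations of the list were 0.24, -1.03 and 0.28.

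Markers of other cell types were summed by list. Summed over 8 fibroblast markers, CPM was 364, 68.8 and 431 in guide 2 replicates 1, 2 and 3 and 138 to 161 in controls, most of it from DCN, which is also in the mesenchymal list. POSTN had 31.8, 6.94 and 26.1 CPM against 16.3, 16.6 and 35.4 CPM, and COL1A1 had 3.69 to 5.96 CPM against 12.3 to 20 CPM. The part of cells of another type in these values was not tested. COL3A1, PDGFRA and THY1 were at no more than 0.123 CPM in each of the 6 libraries. Among immune markers, CD3E had no count, and PTPRC, which encodes the leukocyte antigen CD45, was at no more than 0.0542 CPM. Over 4 adipocyte markers it was at most 0.318. Endothelial markers summed to 2.43 to 9.84 CPM, mainly KDR, with CDH5 at no more than 0.0145 CPM.

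**Figure D4:**
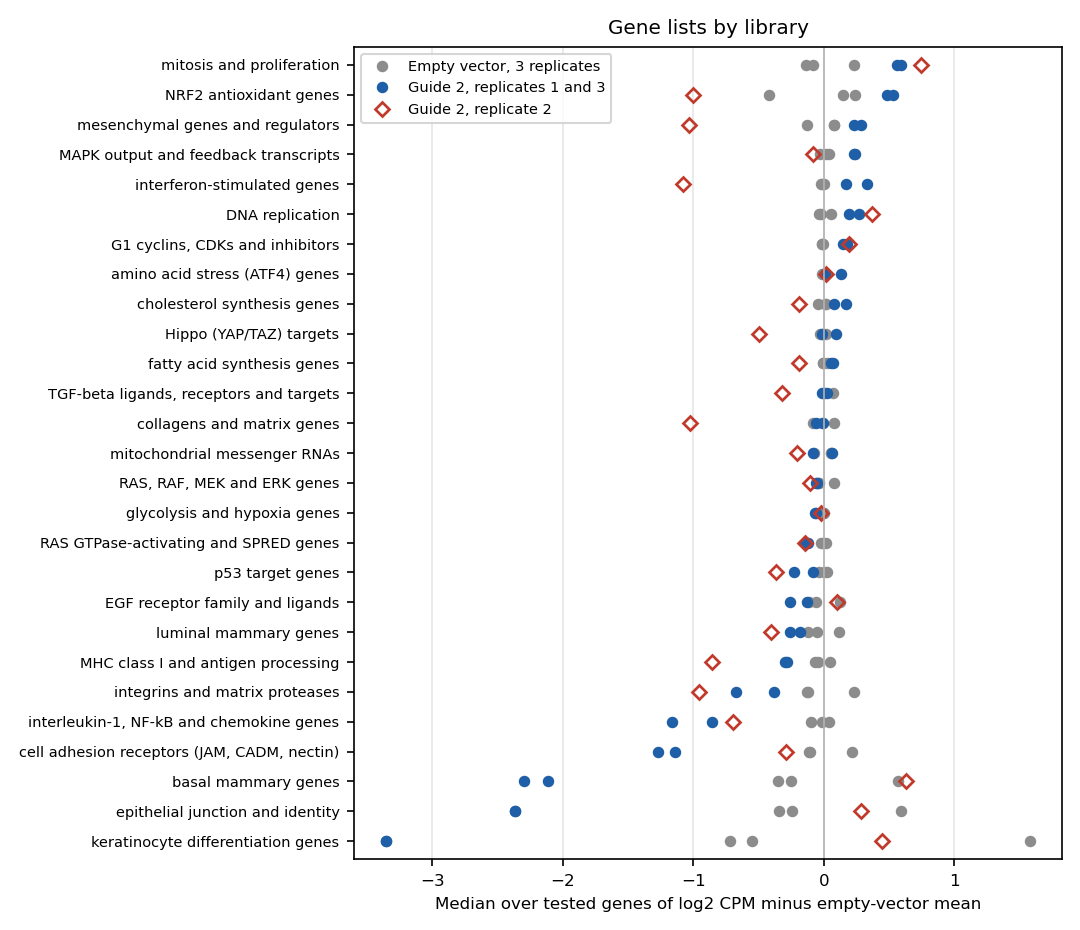
Median over the tested genes of each list of log2 CPM minus the empty-vector mean, for lists with at least 10 tested genes, by library (grey empty vector, blue guide 2 replicates 1 and 3, red diamonds guide 2 replicate 2). Replicate 2 lies among the controls for epithelial genes (0.28) and above them for basal genes (0.63), far below them for interferon-stimulated (-1.08) and mesenchymal (-1.03) genes, and with the other guide 2 libraries for mitosis genes.

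Interleukin-1, NF-kB and chemokine genes held calls in the lower direction. Of 23 tested, 4 fell with all replicates and 14 without replicate 2, beside 2.73% and 9.42% of all genes, and 12 lay below every control, beside 10.9%. With IL1B and CXCL5 these were CSF1, a macrophage growth factor, and NFKBIZ, a nuclear NF-kB cofactor. CSF1 had 29, 17.7 and 28.6 CPM against 43.3, 48.6 and 35.8 CPM and fell by 0.77 (edgeR adjusted p 0.033, SE 0.18). NFKBIZ had 6.76, 6.25 and 7 CPM against 13.4, 12.2 and 11.3 CPM and fell by 0.89 (edgeR adjusted p 0.0143, SE 0.17). NFKBIZ passed whichever library was left out, while CSF1 did not pass without an empty-vector library (edgeR adjusted p 0.0608 to 0.114) or guide 2 replicate 3 (0.0531). The list's median was -0.82 with all replicates and -1.12 without replicate 2. Parental cells against the same controls gave -0.79. Replicate 2 was apart at IL1A, with 9.27, 185 and 7.99 CPM against 83.2, 71.5 and 117 CPM, and IL1A was lower without replicate 2 (-3.42, edgeR adjusted p 0.00717).

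Of 15 genes for MHC class I and antigen processing, 3 fell, namely HLA-C, TAP1 and TAPBP, and 9 lay below every control. Over all genes these shares were 2.73% and 10.9%. Of the 15 genes, 11 lie on chromosomes 3, 6 and 15, where 7.28% of all tested genes were called lower. The list's median log2 fold change was -0.42, and parental cells against the same controls gave -0.41. Against parental cells, the guide 2 median was -0.0064. TAPBP, which loads peptides onto class I molecules, had 129, 83.8 and 125 CPM against 172, 173 and 177 CPM. It fell by 0.64 (edgeR adjusted p 0.0192, SE 0.13). HLA-C had 99.7, 77.8 and 107 CPM against 130, 134 and 151 CPM and fell by 0.56 (edgeR adjusted p 0.0185). Without empty-vector replicate 3, HLA-C, TAP1 and TAPBP did not pass (edgeR adjusted p 0.0849, 0.0758 and 0.0767), nor did TAP1 without guide 2 replicate 1 or 3 (0.057 and 0.0549). All 3 lie on chromosome 6, whose genes had a median deviation of -0.278 to -0.178 in the guide 2 libraries. The part of that shift in these values was not tested.

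Of 20 interferon-stimulated genes edgeR called 0 with all replicates, with 5 at an unadjusted p under 0.05, 2 by DESeq2 and 10 by limma-voom with quality weights. Replicate 2 was below both other guide 2 libraries at 16 of them. It was more than 1 log2 unit below their mean at 13, beside 2514 of all 17457 genes tested. BST2, an antiviral membrane protein, had 60.6, 9.04 and 61.1 CPM against 23.7, 24.0 and 12.4 CPM. IFI44L had 79.8, 10.8 and 94.5 CPM against 44.7, 47.0 and 32.8 CPM. Without replicate 2, BST2, IFI44L and OAS1 were higher, by 1.57, 1.04 and 0.69, and the RNA sensor gene IFIH1 was lower by -1.54. Of all genes, 5.04% were higher and 9.42% lower in that fit.

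The lists of integrins with proteases and of matrix genes held the most calls with all replicates. Of 28 integrins and matrix proteases, 7 fell in edgeR, beside 2.73% of all genes, and 0 rose. DESeq2 called 8 lower and 0 higher, and limma-voom with quality weights 15 lower and 4 higher. The integrin chains ITGA1 and ITGA2, which bind collagen, and ITGAV were among them. ITGA1 had 15.9, 22.5 and 17.8 CPM against 34.3, 34.5 and 33.2 CPM and fell by 0.87 (edgeR adjusted p 0.00602, SE 0.14). PLAU, the urokinase that activates plasminogen, had 44.4, 46.2 and 35.7 CPM against 109, 115 and 256 CPM. It fell by 1.95 (edgeR adjusted p 0.00525, SE 0.30), with no sign of replicate 2 apart. MMP14, a membrane-bound collagenase, fell by 0.92 (edgeR adjusted p 0.013). MMP9, a gelatinase, had 0, 0.199 and 0.0145 CPM against 1.3, 1.88 and 18.5 CPM, with empty-vector replicate 3 far above the other controls. MMP10 also fell, at no more than 0.109 CPM in guide 2 cells. ITGA1 and PLAU passed whichever library was left out. ITGA2, MMP9 and MMP10 did not pass without empty-vector replicate 3 or guide 2 replicate 1 or 3 (edgeR adjusted p 0.0602 to 0.0785, 0.077 to 0.0846 and 0.0879 to 0.153). ITGAV did not without empty-vector replicate 3 or guide 2 replicate 1 (0.0795 and 0.0524), nor MMP14 without guide 2 replicate 3 (0.0508). Without replicate 2, 12 of the 28 were lower and 1 higher, beside 9.42% and 5.04% of all genes. ITGA6 and ITGB6 were among those then lower, and the higher gene was MMP2. The list's median log2 fold change was -0.41 with all replicates. Parental cells against the same controls also gave -0.41, and guide 2 against parental cells gave -0.038.

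Of 27 collagens and matrix genes, 5 fell, beside 2.73% of all genes, namely COL1A1, COL4A1, LAMB3, TNC and BGN. COL4A1, a basement membrane collagen, had 272, 158 and 233 CPM against 353, 346 and 367 CPM and fell by 0.70 (edgeR adjusted p 0.0278, SE 0.16). TNC, which encodes tenascin-C, had 10.3, 16.1 and 11.6 CPM against 27.6, 33.8 and 110 CPM and fell by 2.20 (edgeR adjusted p 0.0239). BGN had 0.831, 0.145 and 1.17 CPM against 7.23, 7.39 and 1.53 CPM, so its lowest control lay close to the guide 2 range. Of 12 adhesion receptors, 3 fell, beside the same 2.73%, namely JAM3, NECTIN4 and L1CAM. L1CAM had 11.8, 14.2 and 10.8 CPM against 30.5, 31.4 and 41.2 CPM and fell by 1.5 (edgeR adjusted p 0.000385, SE 0.15). Of 21 TGF-beta pathway genes, 1 rose, the co-receptor gene TGFBR3, and 1 fell, TGFBI, beside 1.2% and 2.73% of all genes. TGFBR3 had 37.4, 25.2 and 45.8 CPM against 21.6, 21.2 and 17 CPM and rose by 0.85 (edgeR adjusted p 0.0318, SE 0.20). TGFBI, a secreted matrix protein, had 4829, 2495 and 4451 CPM against 6841, 7088 and 6948 CPM and fell by 0.84 (edgeR adjusted p 0.0292, SE 0.19). Of the genes in these lists L1CAM passed whichever library was left out. NECTIN4 and TGFBR3 passed without guide 2 replicate 2 but not without any 1 of the other 5 libraries (edgeR adjusted p 0.0709 to 0.149 and 0.0818 to 0.157). COL4A1 and TGFBI did not pass without guide 2 replicate 3 or any 1 empty-vector library (0.0586 to 0.106 and 0.0538 to 0.102), nor BGN without empty-vector replicate 1 or 2 or guide 2 replicate 1 or 3 (0.0575 to 0.11). TNC did not without empty-vector replicate 3 or guide 2 replicate 1 or 3 (0.0754 to 0.0849), nor JAM3 without empty-vector replicate 3 (0.0629).

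Calls were spread unevenly over the chromosomes, a pattern chosen after the values were seen. DNA was not measured. Chromosomes 3, 6 and 15 held 14.2% of the tested genes and 180 of the 477 lower calls (37.7%). Of their genes, 7.28% were called lower, against 0.989% on chromosomes 7, 8, 11, 13, 19 and 20 and 2.37% on all others. Genes of chromosome 6 had medians of -0.278 to -0.178 log2 units against the control mean in guide 2 cells, and chromosome 15 of -0.242 to -0.161. Over all 12 libraries other than the empty vector, the medians ran from -0.278 to -0.157 on chromosome 6 and from -0.247 to -0.145 on chromosome 15. On chromosome 3 the shift lay beyond 60 Mb, with -0.189, -0.234 and -0.18 in guide 2 replicates 1, 2 and 3, and 0.0418, -0.0421 and 0.032 before it. Without these 3 chromosomes, 496 calls were left, of which 199 were higher and 297 lower.

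Guide 2 replicate 2 had a further shift of its own. On chromosomes 7, 8, 11, 13, 19 and 20 its medians were 0.43, 0.443, 0.471, 0.454, 0.36 and 0.394, while replicates 1 and 3 lay between 0.01 and 0.0974. On the other 14 chromosomes its medians lay between -0.148 and 0.0495. Parental replicate 1 also had a higher median over the same 6 chromosomes, 0.257 against 0.0144 and 0.0366 in the other parental libraries. These 6 chromosomes held 24.3% of the tested genes and 112 of the 210 higher calls (53.3%). Without replicate 2 they held 264 of 900 higher calls, and 6.09% of their genes were called higher, against 2.89% on chromosomes 3, 6 and 15 and 5.13% on all others. FOSL1 (chromosome 11), SPRY2 (chromosome 13), UBE2C (chromosome 20) and CDKN2D (chromosome 19) are among the genes located there. Without replicate 2 their log2 fold changes were 0.72, 0.62, 0.76 and 0.90, and all of them passed.

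**Figure D5:**
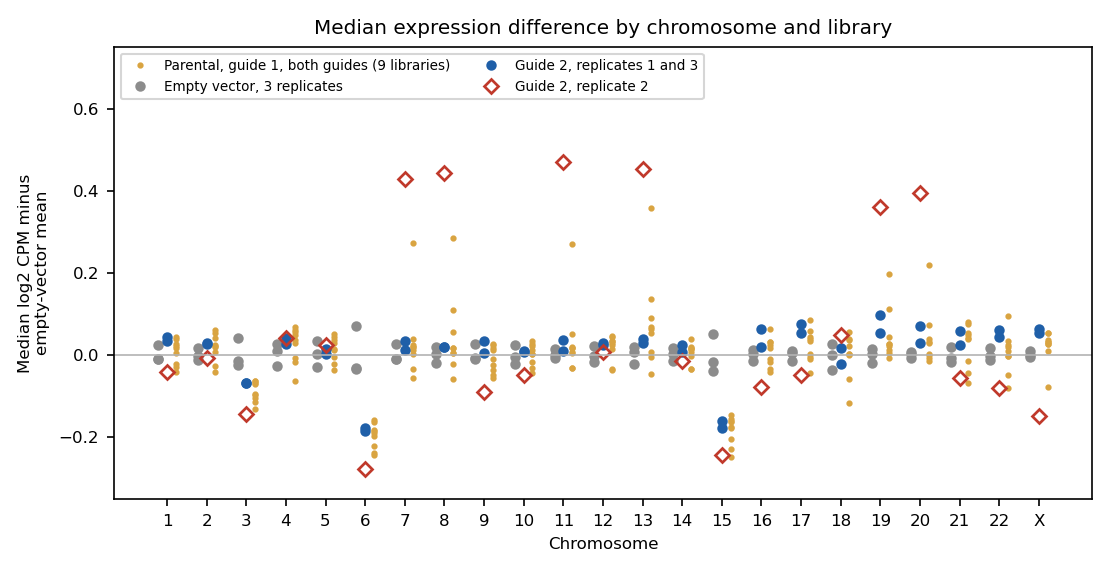
Median over genes (average log2 CPM of at least 3) of log2 CPM minus the empty-vector mean, by chromosome and library: grey circles empty vector, blue circles guide 2 replicates 1 and 3, red diamonds guide 2 replicate 2, small yellow points the 9 libraries of the other genotypes. Replicate 2 reaches 0.36 to 0.471 on chromosomes 7, 8, 11, 13, 19 and 20, and all libraries other than the empty vector lie below it on chromosomes 3, 6 and 15.

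Against parental cells, 9 of 17457 genes passed with all guide 2 replicates (0.0516%), 4 higher (0.0229%) and 5 lower (0.0286%). Of 17849 genes tested without replicate 2, 1064 passed (5.96%), 520 higher (2.91%) and 544 lower (3.05%). Parental cells themselves differed from the empty vector at 762 genes (4.37%), and both comparisons share libraries with the guide 2 comparison. The genes lower in guide 2 cells than in each control were NF1, C9orf64, JAM3 and the antisense transcript ENSG00000271857 on chromosome 6. The last did not pass against the empty vector without guide 2 replicate 2 (edgeR adjusted p 0.0676), and its reads cannot be told from those of the opposite strand if strand was not used in counting. C9orf64 had 0.126, 0.0906 and 0.0578 CPM in guide 2 cells, 2.38, 2.36 and 2.91 CPM in empty-vector cells and 0.815 to 1.16 CPM in parental cells. Its log2 fold changes were -4.81 and -3.35 (edgeR adjusted p 5.86e-06 and 0.000455). Replicate 2 was not apart, and cells given both guides had 2.38 to 3.06 CPM while guide 1 cells had 0.0158 to 0.038 CPM. JAM3, a junctional adhesion molecule, had 1.25, 0.942 and 1.36 CPM against 2.89, 2.21 and 3.41 CPM in empty-vector and 3.73 to 6.15 CPM in parental cells. Its log2 fold changes were -1.27 and -1.93 (edgeR adjusted p 0.0127 and 0.00919). Guide 1 cells had 0.076 to 0.115 CPM of JAM3. Cells given both guides had 6 to 7.02 CPM and were higher than the empty vector by 1.19 (edgeR adjusted p 0.0305). NF1 was at 141 to 159 CPM in parental cells, with a log2 fold change of -2.34 for guide 2 (edgeR adjusted p 3.18e-08).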

How the data were processed

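Polyadenylated RNA was purified on RNeasy columns and made into libraries with a KAPA mRNA HyperPrep kit, per the labels. Reads were processed with Trim Galore 0.6.0, STAR 2.7.8a and the GRCh38 build, per the submitters' processing notes. The counting program, annotation and use of strand are not given in the sources used here, so values of overlapping genes and of near-identical gene copies are uncertain. The authors deposited whole-number counts per gene and a table of CPM, which equals counts divided by library totals to within 4.91e-11. Of 60721 genes, 60357 had a symbol and 58503 a GENCODE release 29 position.

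Counts were tested in edgeR 4.0.16 (R 4.3.3). TMM scaling, filterByExpr by genotype and a single quasi-likelihood model over all 15 libraries (10 residual degrees of freedom) were used, with two-sided tests, and 17457 genes were tested. Genes were called at a Benjamini-Hochberg adjusted p under 0.05, with the adjustment made over every gene tested. Library deviations used log2 CPM (prior count 2), computed from the deposited counts. DESeq2 1.42.0, limma 3.58.1 and refits without each replicate were alternatives. NF1 was also compared in scipy 1.17.1. The procedure was tested on simulated data. Intervals and floors cover counting error only, since reads carry no molecular identifiers.

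The comparison, the 32 gene lists and the rule for named genes were chosen with earlier results of these data known. The rule takes NF1, the 12 highest and 12 lowest called genes without overlap (average log2 CPM of at least 1), list members called with or without guide 2 replicate 2, up to 4 per list by size, and 10 genes each way that set replicate 2 apart. Other genes named were chosen after their values were seen: list members given as markers or context, the genes called against parental cells, and TSPAN18. Of the interferon list, 23 of 24 genes were found in the table. The labels do not say whether equal replicate numbers pair the libraries, and the main fit did not pair them. The closing section gives a fit with the number as a block.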

Additional observations from a re-analysis of the deposited data

How the results depend on the processing

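The NF1 difference kept its direction and passed in each setting run in edgeR, DESeq2 and limma, with log2 fold changes from -2.39 to -2.03 and adjusted p-values up to 0.0089. The number of genes changed, higher and lower moved more than 1.5 times in most. The counts were 1373, 479 and 894 by DESeq2, 5804, 3003 and 2801 by limma-voom with quality weights, where guide 2 replicate 2 had a weight of 0.0518, and 250, 45 and 205 at an absolute log2 fold change of at least 1. Without a filter on low counts 122 were higher. In a fit of only the 6 libraries the counts were 13, 0 and 13, with 819 higher genes at an unadjusted p under 0.05, and against parental cells they were 9, 4 and 5. With the replicate number as a block they were 375, 94 and 281. Correlations of deviations from the group means between equal numbers were 0.223, -0.248 and -0.377. Guide 2 replicate 2 and empty-vector replicate 3, the library apart in each group, had 0.385. With 3 libraries a group, these values cannot decide whether equal numbers share a culture or batch. Leaving out 1 library gave 170 to 2581 changed, 32 to 900 higher and 138 to 1681 lower. The lowest counts came without empty-vector replicate 3 and the highest without guide 2 replicate 2. Settings added after the data were seen, all without guide 2 replicate 2, gave 1064 changed and 520 higher against parental cells, 2851, 1098 and 1753 with the replicate block, and 3844, 1711 and 2133 with only the libraries compared. Without chromosomes 3, 6 and 15, also added then, 297 genes were lower. Of 60 called genes named by the rule besides NF1, 60 also passed by DESeq2, by RLE scaling, by limma-voom and without guide 2 replicate 2. With the block 44 did, without empty-vector replicate 3 23 did, with only 6 libraries 4 did, and against parental cells 1 did. Against parental cells these log2 fold changes reversed: IL1B 0.457, SDCBP2 0.338, ENTPD2 0.671, JCAD 0.062, LAMB3 0.311, HLA-C 0.051, TAP1 0.113, ITGA2 0.081, SESN2 0.123, CA8 -0.676 and TOP2A -0.105. Without guide 2 replicate 2 and by limma-voom, these uncalled values turned into lower calls: CDK6 -1.27 and -1.06, OVOL2 -6.08 and -5.76, KRT5 -1.49 and -1.34, KRT14 -3.39 and -2.80, TRIM29 -0.962 and -0.781, NECTIN1 -1.56 and -1.29, SLC7A5 -0.95 and -0.838, and MPZL2 -8.94 and -8.35. SPRR1B turned to -11.06 without replicate 2 and CCND2 to -1.71 by limma-voom. Leaving out 1 library moved CDK6 from -1.27 to 0.534, OVOL2 from -6.08 to 0.617, KRT5 from -1.49 to 0.446, KRT14 from -3.39 to 1.65, TRIM29 from -0.962 to 0.43, NECTIN1 from -1.56 to 0.634, SLC7A5 from -0.95 to 0.438, MPZL2 from -8.94 to 0.636 and SPRR1B from -11.06 to 3.01. For each of these the cause was not tested. Depth limits the size of folds for genes at 3 counts or fewer in a library.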

Other observations

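Stress and metabolic lists held few calls. Of 19 p53 target genes, SESN1 and SESN2, which encode sestrins that restrain mTORC1, fell in edgeR, beside 2.73% of all genes, and 0 rose. DESeq2 called 2 lower and 0 higher, and limma-voom with quality weights 7 lower and 1 higher. SESN1 had 18.4, 25.2 and 20.4 CPM in guide 2 replicates 1, 2 and 3 against 34.1, 33.8 and 29.8 CPM in empty-vector cells. It fell by 0.62 (edgeR adjusted p 0.0187, SE 0.13). SESN1 passed without guide 2 replicate 2 or empty-vector replicate 3 but not without any 1 of the other 4 libraries. It lies on chromosome 6, and the part of that chromosome's lower median was not tested. CDKN1A, the p21 gene, had 193, 90.0 and 200 CPM against 264, 269 and 255 CPM and did not pass (-0.71, edgeR adjusted p 0.177). Of 19 cholesterol synthesis genes, 1 rose, beside 1.2% of all genes. This was FDFT1, the squalene synthase, which rose by 0.36 (edgeR adjusted p 0.0307, SE 0.08), with 545, 526 and 516 CPM against 347 to 442 CPM. FDFT1 passed without guide 2 replicate 2 (edgeR adjusted p 0.0243) but not without any 1 of the other 5 (0.0516 to 0.118). Of 19 amino acid stress genes 1 fell, SESN2, beside 2.73% of all genes. Its call, in both lists, held without guide 2 replicate 2 but not without any 1 of the other 5 libraries (edgeR adjusted p 0.0611 to 0.11). SLC7A5, a large neutral amino acid transporter, had 883, 3497 and 784 CPM against 1502, 1515 and 1715 CPM, with replicate 2 above and the others below every control.

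Of 17 NRF2 antioxidant genes edgeR and DESeq2 called 0, with 1 at an unadjusted p under 0.05 and 8 called by limma-voom with quality weights. Over all 17457 genes tested, 3293 had such an unadjusted p, DESeq2 called 1373 and limma-voom called 5804. Among the 17, replicate 2 was below both other guide 2 libraries at 16. It was more than 1 log2 unit below their mean at 9, beside 2514 of all genes tested. AKR1C2, an aldo-keto reductase, had 848, 184 and 1034 CPM against 528, 470 and 172 CPM, so empty-vector replicate 3 was near replicate 2. Of 18 Hippo pathway genes edgeR called 0, with 4 at an unadjusted p under 0.05, 2 by DESeq2 and 6 by limma-voom. CCN2 had 553, 95.2 and 549 CPM against 331, 321 and 230 CPM. Of 19 glycolysis and hypoxia genes edgeR and DESeq2 called 0, with 2 at an unadjusted p under 0.05 and 7 by limma-voom. Of 12 fatty acid synthesis genes edgeR and DESeq2 called 0, with 1 at an unadjusted p under 0.05 and 5 by limma-voom. Of 13 mitochondrial messenger RNAs all 3 tools called 0, with 0 at an unadjusted p under 0.05.

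The genes that set replicate 2 lowest against its group were outside the epithelial lists. MYPN, which encodes a sarcomere protein, had 109, 11.6 and 119 CPM against 51.1, 50.5 and 42.0 CPM. RBP4, the plasma retinol carrier, had 18.3, 1.03 and 19.7 CPM against 4.43, 4.54 and 3.51 CPM. PSCA, a surface antigen, had 67.3, 6.25 and 67.9 CPM against 31.9, 33.0 and 15.5 CPM. The same order held at COL28A1, CCN5, PTGFR and ATOH8, where replicates 1 and 3 were above every control and replicate 2 was below every control.

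Some genes passed against parental cells and not against the empty vector. PDE3A, a cyclic nucleotide phosphodiesterase, had 0.542, 0.29 and 0.419 CPM in guide 2 cells, 0.653 to 0.959 CPM in empty-vector cells and 0 to 0.0175 CPM in parental cells. TLR4, a receptor for bacterial lipopolysaccharide, had 16.0, 4.13 and 18.1 CPM in guide 2 cells, 9.44 to 10.7 CPM in empty-vector cells and 1.80 to 2.68 CPM in parental cells.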
